A study of Mus musculus with 27 samples.

Results

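The genes described here are 8 members of the Kruppel-like factor family, Klf2, Klf4, Klf6, Klf7, Klf9, Klf10, Klf13 and Klf15, as they were measured in mouse whole retina during development. They were taken by symbol from a table of 38168 entries, and 7 other Klf genes are in the same table. Of these 8 genes, only Klf9 has more than a single entry under its symbol, and its entry with the higher mean was used. All 8 passed the filter for low values, at least 3 libraries with 1 CPM or more (CPM are reads scaled to the total of the library), as did 31760 entries in all. The study followed thyroid hormone receptor isoforms in the retina, and its RNA-seq of wild type C57BL/6J mice, an inbred laboratory strain, gave 27 libraries at 7 ages. There were 3 libraries at embryonic day 14 (E14), 3 at E17, 4 at postnatal day 1 (P1), 3 at P6, 4 at P15, 4 at P28 and 6 at P60. No group carried a mutation or a treatment, and all mice were kept on a light and dark cycle with tissue taken in the light phase. The methods describe the libraries as pools of several embryos or mice, except that 4 of the 6 at P60 were single mice. The labels instead give 3 retinas for each library. Embryos and P1 pups were of both sexes and older mice were males, so the step from P1 to P6 also changed the sexes present.

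Kruppel-like factors are transcription factors that bind GC-rich and CACCC sequences through zinc fingers near their C-terminus. In retinal ganglion cells, the neurons that send axons to the brain, KLF6 and KLF7 are known to promote axon growth and KLF4 and KLF9 to restrain it. KLF9 is also a classical thyroid hormone-inducible gene in the nervous system and responds to glucocorticoids. KLF13 is its close relative, KLF10 is an early-response gene induced by TGF-beta, KLF15 acts in metabolism and glucocorticoid responses, and KLF2 is best known in the endothelium of blood vessels.

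The members lie on 8 chromosomes of the mouse build GRCm38. By the GENCODE annotation, the genes that promote axon growth are Klf7 (Gene ID 93691) at chr1:64029447-64122282 on the minus strand and Klf6 (Gene ID 23849) at chr13:5861482-5870394 on the plus strand. Klf9 (Gene ID 16601) is at chr19:23141226-23168134 on the plus strand, and Klf4 (Gene ID 16600) is at chr4:55527143-55532466 on the minus strand. Klf13 (Gene ID 50794) is at chr7:63886351-63938915, minus strand, and Klf10 (Gene ID 21847) is at chr15:38291463-38300706, minus strand. Klf15 (Gene ID 66277) is at chr6:90462576-90475238, plus strand, and Klf2 (Gene ID 16598) is at chr8:72319033-72321656, plus strand. No 50-base word of a member's transcripts was shared with another Klf transcript. Exons of Klf7 overlap those of Gm26649, a lincRNA, and Gm13748, an antisense RNA, on the opposite strand. Whether the counting used strand is not given in the sources used here, so the Klf7 value may hold reads of those RNAs.

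RefSeq promoter windows were found for 7 of the 8 members (all but Klf10). The stretch of 250 bases upstream of the transcript start is shown for Klf9, Klf13 and Klf15, because the start in that table matched the annotated transcript and no exon lay in the stretch, and because these genes moved differently with age. Capitals mark the GC box (GGGCGG or its reverse complement), to which Sp and Kruppel-like factors bind, the E-box (CACGTG), to which clock factors bind, and the CCAAT box, each searched on both strands. The windows are chr19:23140976-23141225 (plus strand), chr7:63938916-63939165 (minus strand) and chr6:90462326-90462575 (plus strand) of GRCm38.p6, written 5′ to 3′.
Klf9: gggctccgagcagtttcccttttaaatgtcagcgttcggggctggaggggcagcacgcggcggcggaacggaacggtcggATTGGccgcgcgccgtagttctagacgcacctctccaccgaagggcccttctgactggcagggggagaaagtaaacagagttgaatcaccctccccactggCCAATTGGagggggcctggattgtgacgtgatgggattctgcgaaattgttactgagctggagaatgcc
Klf13: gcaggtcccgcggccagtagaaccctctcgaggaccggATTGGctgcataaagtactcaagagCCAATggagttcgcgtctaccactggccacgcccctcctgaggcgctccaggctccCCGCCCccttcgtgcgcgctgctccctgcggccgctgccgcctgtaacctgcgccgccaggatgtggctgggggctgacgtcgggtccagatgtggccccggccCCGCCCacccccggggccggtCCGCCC
Klf15: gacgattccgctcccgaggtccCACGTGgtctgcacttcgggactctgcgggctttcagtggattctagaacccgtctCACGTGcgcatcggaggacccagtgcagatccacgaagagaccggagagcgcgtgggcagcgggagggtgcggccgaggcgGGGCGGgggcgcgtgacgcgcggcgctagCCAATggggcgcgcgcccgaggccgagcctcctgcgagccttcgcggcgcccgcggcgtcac
The Klf9 stretch held no GC box and 3 CCAAT matches, of which 2 overlap each other. The Klf13 stretch held 3 GC boxes and 2 CCAAT matches, and the Klf15 stretch 1 GC box, 2 E-boxes and 1 CCAAT match. A GC box was in 6 of the 7 member windows and in 32.7% of all 32851 promoter windows of that length, an E-box in 3 of 7 and 6.02%, and a CCAAT box in 4 of 7 and 33.8%. The CACCC box (CCACCC) was in 3 of 7 windows and 28.1% of all. The thyroid hormone receptor half-site AGGTCA (14.0% of all windows), the DR4 element, which repeats it after a spacer (0.0152%), the glucocorticoid receptor half-site AGAACA (16.1%) and TATAAA (12.4%) had no match in the member windows. GC content was 59.6% for Klf9, against a median of 71.2% for the 7 members and 52.4% for all windows. These matches describe letters in a short window and do not show binding.

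The deposited CPM values corresponded to between 7076646 and 11330762 reads in a library (median 7968785), and 1 read was worth 0.0882 to 0.141 CPM. The tissue label could be checked from marker sums. Rod genes rose from a median sum of 24.6 CPM at E14 to 28248 CPM at P60, while progenitor genes went from 6203 to 169.7 CPM. Markers of the retinal pigment epithelium, lens and blood never summed to more than 34.5, 13.3 and 50.3 CPM in any library. Libraries of an age were compared by the chi-square of their reads over features, per degree of freedom, and some stood apart. P60 replicates 1 and 2 were close to each other (3.29) and 8.36 to 21.5 from the other 4 P60 libraries, which were 4.62 to 9.31 from each other. P15 replicate 4 was 5.38 to 8.22 from the other P15 libraries, which were 1.72 to 2.43 from each other. The methods count 4 single mice at P60 and the rest as pools, but which libraries were pools is not given in the sources used here. Whether pooling goes with this split was not tested. Results that rest on these libraries are given with and without them. In whole tissue, fewer cells of a type and less RNA per cell cannot be told apart. The labels do not say that all libraries came from separate animals, so p-values measure the spread between these libraries.

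The first question was which family members differed between the embryonic retina and the retina from P15 on. On the log2(CPM + 1) scale, Klf9 and Klf15 rose strongly, Klf7, Klf6 and Klf13 fell strongly, and Klf10, Klf4 and Klf2 changed less. That scale understates changes of low genes such as Klf2 and Klf4. Mean CPM of Klf2 was 2.36 times higher in mature retina, and that of Klf4 2.38 times higher in the embryo. In a limma fit over all 27 libraries, comparing the mean of P15, P28 and P60 (14 libraries) with that of E14 and E17 (6 libraries), all 8 members passed an adjusted p of 0.05, and 8 passed without P60 replicates 1 and 2 too. This share is to be read against 75.4% of all features, of which 35% were higher and 40.4% lower at the later ages. With a log2 fold change of at least 1 in addition, 5 members passed, 2 higher and 3 lower, against 31% of all features. In edgeR on the recovered reads Klf2 also passed that fold (1.34, adjusted p = 0.018). Library ranges did not overlap for 6 members (all but Klf2 and Klf4), against 40.4% of all features. The median log2 fold change was -0.63 over the 8 members and -0.06 over all features. Each member also differed among the 7 ages in limma's F test, with adjusted p from 2.2e-24 (Klf7) to 0.0059 (Klf2), against 83% of all features called.

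**Figure D1:**
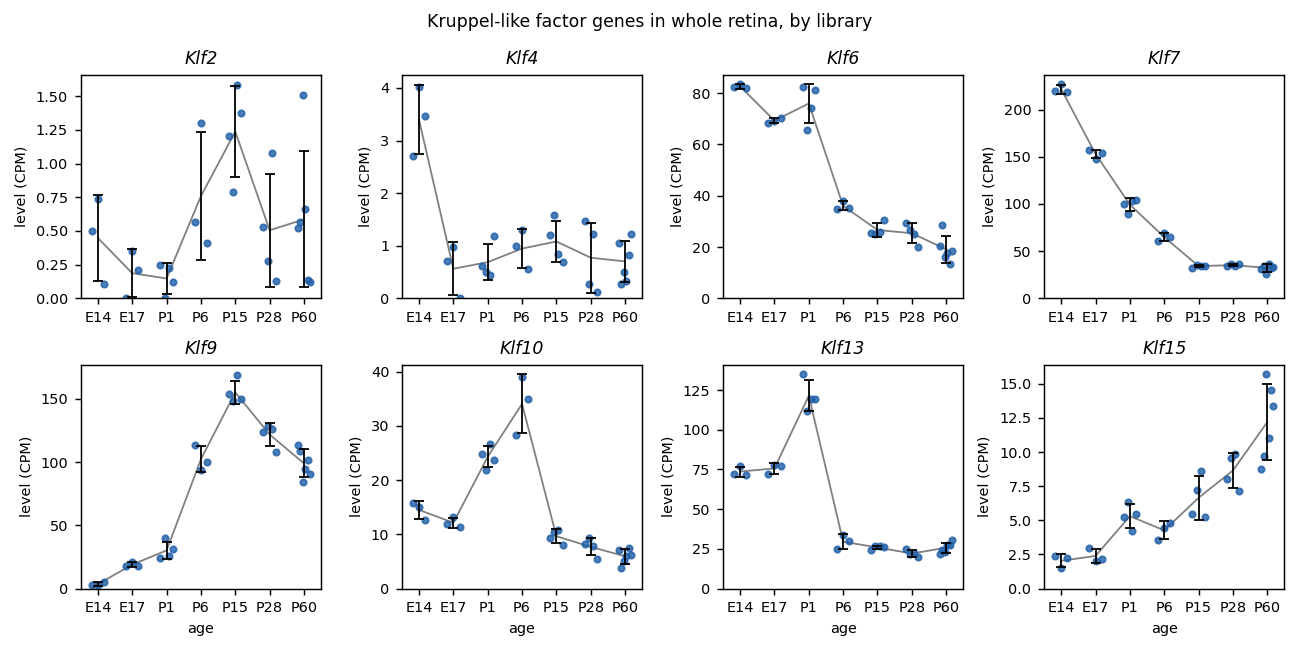
Level of each member in CPM (linear axis from 0) against age, with a point for each library, a grey line through the means and bars of 1 SD, for 3 to 6 libraries per age. Klf7 fell from 222 CPM at E14 to 32.3 CPM at P60 while Klf9 rose from 3.49 CPM to 155 CPM at P15, and Klf13 and Klf10 peaked at P1 and P6.

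Klf7, a promoter of axon growth, was the most abundant member at E14 and fell in steps until P15. Its level was 219.9, 227 and 218 CPM in the E14 libraries, 157, 148 and 154 CPM at E17, and 100.1, 89.2, 103 and 105 CPM at P1. It was 61.2, 69.0 and 64.5 CPM at P6, 32.4, 35.6, 34.0 and 34.8 CPM at P15 and 34.8, 35.9, 34.0 and 36.1 CPM at P28, and at P60 the lowest, median and highest of 6 libraries were 25.3, 32.8 and 36.6 CPM. The ranges of E14, E17, P1, P6 and the group from P15 on did not overlap, whereas P15, P28 and P60 overlapped each other. Mature retina was lower than embryonic by a log2 fold change of -2.41 ± 0.06 (SE, limma adjusted p = 1.8e-26), and mean CPM was 5.57 times higher in the embryo. Each of the first 4 steps was a fall, by log2 fold changes of -0.53, -0.62, -0.60 and -0.91 (limma adjusted p of 1.8e-04, 1.1e-05, 2.2e-06 and 2.2e-09). From P15 to P28 the difference was 0.04 (95% interval -0.13 to 0.21), and from P28 to P60 it was -0.13 (-0.29 to 0.03). The summed level of 8 ganglion cell markers fell over the same first steps, from 1656 to 1705 CPM at E14 to 636 to 726 CPM at P1, with 7 of 8 lower in the step from E17 to P1. Between P1 and P6, where Klf7 fell further, 4 of the 8 markers were higher and 4 lower, and the sum was 791 to 948 CPM at P6. The part of ganglion cell number in the Klf7 level was not tested.

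Klf6, the other promoter of axon growth, passed the test in no step up to P1 in the fit over all ages and fell after it. It was measured at 82.2, 83.8 and 82.1 CPM at E14, 68.3, 69.3 and 70.3 CPM at E17 and 82.4, 65.8, 74.3 and 81.4 CPM at P1. The values were 34.9, 38.1 and 35.2 CPM at P6, 25.3, 25.0, 25.8 and 30.5 CPM at P15 and 29.6, 26.8, 25.0 and 20.1 CPM at P28, and at P60 they were 13.3, 18.0 and 28.4 CPM (lowest, median, highest). The E17 libraries lay below the E14 libraries without overlap, by a log2 fold change of -0.25 (limma adjusted p = 0.42), and this step was called when only E14 and E17 were fitted (limma adjusted p = 0.0039). All libraries up to P1 lay above all libraries from P6 on, the P15 and P28 ranges overlapped, and P60 spread more than P6, P15 or P28. The mature level was lower than the embryonic by a log2 fold change of -1.67 ± 0.10 (SE, limma adjusted p = 2.2e-16). Most of the fall came from P1 to P6, at -1.05 (limma adjusted p = 8.3e-07). Smaller falls from P6 to P15 (-0.42, limma adjusted p = 0.028) and P28 to P60 (-0.42, limma adjusted p = 0.031) were close to the threshold. The first was not called when any of the 3 P6 libraries or P15 replicate 1, 2 or 3 was left out (adjusted p of 0.052 to 0.1), and the second was not called without P28 replicate 1, 2 or 3 or P60 replicate 3, 4 or 5 (adjusted p of 0.062 to 0.12). Neither step was called by edgeR on the recovered reads (adjusted p of 0.053 and 0.067). In fits of the compared ages alone, the fall from P6 to P15 was called (limma adjusted p = 0.0028) and that from P28 to P60 was not. The P6 and P15 ranges did not overlap, whereas the P28 and P60 ranges did.

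Klf9, a repressor of axon growth and a thyroid hormone target, showed the largest change of the 8 members. Its level was 3.00, 2.43 and 5.05 CPM at E14, from 23 to 48 reads per library, then 17.6, 21.4 and 17.8 CPM at E17 and 24.3, 39.6, 25.4 and 31.3 CPM at P1. It reached 113, 93.4 and 99.97 CPM at P6 and 154, 149, 169 and 149.7 CPM at P15, followed by 124, 129, 126 and 108 CPM at P28 and 84.6, 98.0 and 113 CPM (lowest, median, highest) at P60. Every library of an age lay above every library of the age before up to P15, and all P28 libraries lay below all P15 libraries. The steps up to P15 were log2 fold changes of 2.19, 0.63, 1.75 and 0.60 (limma adjusted p of 3.5e-12, 0.0047, 2.2e-11 and 0.0020), so on this log2 scale the steps were largest from E14 to E17 and from P1 to P6. Mean CPM was 10.8 times higher in mature than in embryonic retina. The limma contrast of age means on the log2(CPM + 1) scale was 3.73 ± 0.10 (SE, limma adjusted p = 6.8e-26). After P15 the log2 fold changes were -0.35 to P28 (95% interval -0.63 to -0.07, limma adjusted p = 0.21) and -0.30 to P60 (-0.56 to -0.04, limma adjusted p = 0.11), neither of which passed the test. The first passed in a fit of P15 and P28 libraries alone (limma adjusted p = 0.011), and the second when both Klf9 entries were summed (-0.41, limma adjusted p = 0.024).

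The second Klf9 entry carries the same Gene ID and followed the same course. The E14 and P6 means (SD, n = 3 each) were 0.932 ± 0.110 and 30.5 ± 3.03 CPM. The P15 mean was 41.5 ± 9.33 CPM (SD, n = 4), and the P60 mean 18.9 ± 6.86 CPM (SD, n = 6). The entry used held 69.7% to 88.4% of the reads of both in any library. At P60 replicates 1 and 2 held 27.1 and 27.04 CPM in the second entry, against 12.0 to 19.2 CPM in the other 4 libraries.

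Read against each other, Klf7 and Klf9 changed places between P1 and P6. Klf9 had 0.0158 ± 0.0065 reads per Klf7 read at E14 (SD, n = 3), 0.124 ± 0.018 at E17 (SD, n = 3) and 0.308 ± 0.094 at P1 (SD, n = 4). The ratio was 1.59 ± 0.25 at P6 (SD, n = 3), 4.55 ± 0.37 at P15 (SD, n = 4), 3.47 ± 0.32 at P28 (SD, n = 4) and 3.09 ± 0.38 at P60 (SD, n = 6). It lay under 1 in every library up to P1, with a highest value of 0.444, and above 1 in every library from P6, with a lowest value of 1.35. A ratio within a library does not depend on its scaling, but it is not corrected for transcript length. Of the summed CPM of the 8 members, Klf7 made up 55.2% at E14 and 16.5% at P60, and Klf9 0.873% and 50.5%. The sum itself went from a median of 399 CPM to 196 CPM.

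**Figure D2:**
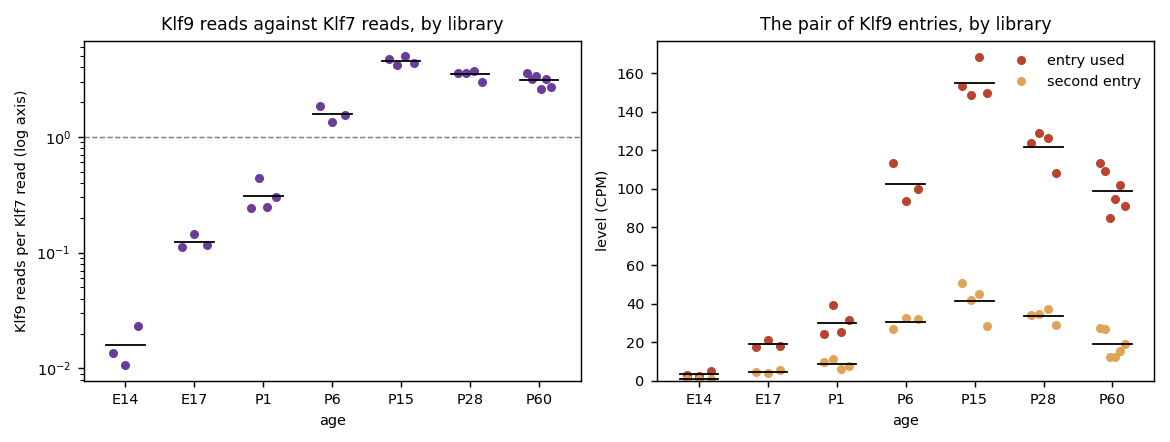
Left, Klf9 reads per Klf7 read in each library on a log axis, with bars at the means and a dashed line at 1; right, level in CPM of the used and second Klf9 entries on a linear axis. The ratio stayed at or under 0.444 up to P1 and at or above 1.35 from P6, and both entries were highest in mean at P15.

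Klf13, a repressor closely related to Klf9, took another course and peaked at P1. It was measured at 72.1, 77.3 and 71.5 CPM at E14, 72.0, 78.1 and 76.9 CPM at E17, and 135, 112, 119 and 119 CPM at P1. After that it was 24.6, 33.7 and 30.2 CPM at P6, 24.1, 26.7, 26.7 and 26.0 CPM at P15 and 24.8, 21.6, 22.2 and 19.6 CPM at P28, with 21.9, 25.7 and 30.4 CPM (lowest, median, highest) at P60. All P1 libraries lay above all others, the E14 and E17 ranges overlapped, and the later ages were below every earlier library. The rise from E17 to P1 was 0.67 (log2, limma adjusted p = 5.5e-05) and the fall from P1 to P6 was -2.01 (log2, limma adjusted p = 5.3e-16), a 4.11-fold lower mean CPM. Over the whole comparison the mature level was lower by -1.57 ± 0.07 (SE, limma adjusted p = 2.8e-19). From P1 to P6 the summed level of 8 progenitor markers went from 4755 to 5178 CPM down to 568 to 639 CPM, with 7 of 8 lower. Between E17 and P1, where Klf13 rose, 0 of the 8 progenitor markers were called higher, 2 were called lower and 6 were not called. The part of progenitor number in the Klf13 level was not tested.

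Klf10, the TGF-beta-inducible member, peaked at P6 and had its lowest mean at P60. Its level was 15.8, 15.1 and 12.6 CPM at E14, 11.9, 13.1 and 11.4 CPM at E17 and 24.9, 21.9, 26.6 and 23.8 CPM at P1. It was 28.3, 39.0 and 34.9 CPM at P6, 9.37, 10.4, 10.8 and 7.97 CPM at P15 and 8.13, 9.27, 7.85 and 5.53 CPM at P28, and 3.80, 6.10 and 7.55 CPM (lowest, median, highest) at P60. The P1 and P6 libraries lay above those of all other ages, and all mature libraries lay below all embryonic ones. Mean CPM rose 2.003-fold from E17 to P1 (log2 fold change 0.94, limma adjusted p = 2.6e-04) and fell 3.53-fold from P6 to P15 (log2 fold change -1.72, limma adjusted p = 2.1e-09). The rise from P1 to P6, 0.46, had a limma adjusted p of 0.034 and was not called without P1 replicate 1, 2 or 4 or P6 replicate 2 or 3 (adjusted p of 0.05 to 0.17). Mature retina was lower than embryonic by -0.74 ± 0.11 (SE, limma adjusted p = 5.2e-07), a comparison that does not include the peak. The summed level of 11 immediate early genes, which respond quickly to stimulation and to dissection, was 262 to 282 CPM at E14, 347 to 378 CPM at P1, 376 to 420 CPM at P6 and 211 to 229 CPM at P15, so that P1 and P6 overlapped. Much of this sum was Btg2, with means of 110, 205, 244 and 86.7 CPM at E14, P1, P6 and P15. From P1 to P6, 4 of the 11 genes were higher and 2 lower, and from P6 to P15, 2 were higher and 3 lower. The part of these genes in the Klf10 level was not tested.

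Klf15, a metabolic regulator, rose from low levels at E14 to its highest mean at P60. It was 2.40, 1.48 and 2.21 CPM at E14, 2.96, 2.03 and 2.17 CPM at E17 and 5.27, 6.30, 4.18 and 5.44 CPM at P1. It was 3.53, 4.43 and 4.83 CPM at P6, 5.49, 7.24, 8.64 and 5.22 CPM at P15 and 7.99, 9.55, 9.88 and 7.17 CPM at P28, and at P60 8.79, 12.2 and 15.7 CPM (lowest, median, highest). The embryonic libraries, with 14 to 29 reads each, lay below all later ones, but neighbouring ages after P1 overlapped apart from P6 and P15. The mature level was higher by a log2 fold change of 1.62 ± 0.13 (SE, limma adjusted p = 7.7e-13), and mean CPM was 4.34 times higher. The step from E17 to P1 was 0.89 (limma adjusted p = 0.0028). The step from P6 to P15 was 0.52 (limma adjusted p = 0.044) and was not called without any of the 3 P6 libraries or P15 replicate 2 or 3 (adjusted p of 0.052 to 0.18). The step from P28 to P60, 0.43 (95% interval 0.09 to 0.78), had an adjusted p of 0.085 in limma and of 0.047 in edgeR. Over the same step the summed glucocorticoid-responsive genes went from 271 to 287 CPM at P28 to 339 to 435 CPM at P60. Of these 7 genes, 4 were called higher, 0 lower and 3 not called. Their part in the Klf15 level was not tested.

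Klf4, a restrainer of axon growth and a pluripotency factor, was low and was highest at E14. It was 2.70, 4.01 and 3.47 CPM at E14, from 27 to 38 reads, and 0.716, 0.971 and 0 CPM at E17, where 3 reads are the limit that a count of 0 allows. From P1 on the libraries held 0.126 to 1.58 CPM, 1 to 12 reads. The E14 libraries lay above all others and no later age stood apart. The fall from E14 to E17 was -1.54 on the log2(CPM + 1) scale (limma adjusted p = 1.9e-04), and 36 of 36 alternative settings called it too. Its size depended on the scale. Mean CPM fell 6.04-fold, and edgeR on the recovered reads gave a log2 fold change of -2.55 (adjusted p = 0.0022). The mature against embryonic difference of -0.52 ± 0.17 (SE, limma adjusted p = 0.0075) was not called by edgeR on the recovered reads (adjusted p = 0.13) or with a pseudocount of 0.1 (adjusted p = 0.20), and the ranges overlapped.

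Klf2, the endothelial member, was close to the limit of detection throughout. No library held more than 1.58 CPM or 13 reads, and the level was 0 in 1 of 3 libraries at E17 and 1 of 4 at P1. At P15 it was 1.20, 0.790, 1.58 and 1.37 CPM, its highest mean, while E17 and P1 libraries held at most 4 reads. On the log2(CPM + 1) scale mature retina was higher by 0.40 ± 0.15 (SE, limma adjusted p = 0.021), with overlapping ranges. Mean CPM was 2.36 times higher, and edgeR on the recovered reads gave a log2 fold change of 1.34 (adjusted p = 0.018). The limma call was lost without E14 replicate 3 (adjusted p = 0.094) or E17 replicate 1 (adjusted p = 0.071). From P1 to P6 the difference was 0.59 (limma adjusted p = 0.052, edgeR adjusted p = 0.030), with ranges that did not overlap. The summed endothelial markers were highest at P1, at 425 to 494 CPM, where Klf2 had its lowest mean of 0.147 CPM. Of the 9 markers, however, only Kdr was called from E17 to P1 (log2 fold change 0.54). From P1 to P6 the sum fell to 292 to 303 CPM, although 6 of the 9 rose and 1 fell. The sum thus did not follow most of its genes. From P6 to P15, 3 of the 9 markers were called higher and 1 lower, against 33.4% of features called. From P15 to P28, 0 were called higher and 5 lower, against 2.72%. Klf2 was called in neither step, with log2 fold changes of 0.37 and -0.60 (limma adjusted p of 0.26 and 0.18). The part of these markers in the Klf2 level was not tested.

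Steps between neighbouring ages were compared next, to see when the family changed. From E14 to E17, 3 of 8 members were called, with Klf9 higher and Klf4 and Klf7 lower, against 10.6% of all features, 7.56% higher and 3.02% lower. From E17 to P1, 5 were called, with Klf9, Klf10, Klf13 and Klf15 higher and Klf7 lower, against 9.21% of features, of which 5.77% were higher and 3.43% lower. From P1 to P6, 5 were called (Klf9 and Klf10 higher, Klf6, Klf7 and Klf13 lower) against 38.3%, 18% higher and 20.4% lower. From P6 to P15, 5 were called (Klf9 and Klf15 higher, Klf6, Klf7 and Klf10 lower) against 33.4%, 14.4% higher and 19% lower. From P15 to P28 limma called 0 members, with 3 (Klf2, Klf9 and Klf13) at an unadjusted p under 0.05, against 2.72% of features, 1.14% higher and 1.58% lower. EdgeR on the recovered reads also called 0, with 1 at an unadjusted p under 0.05, against 2.13% of features. From P28 to P60 limma called Klf6 alone, as lower, against 12.9% of features, 4.8% higher and 8.11% lower, and edgeR called Klf15 alone, as higher, against 11% of features. Without P60 replicates 1 and 2, an alternative chosen after seeing the data, limma called 4 members from P28 to P60 against 35.7% of features. These were Klf6 (-0.60, adjusted p = 2.6e-05) and Klf9 (-0.39, adjusted p = 0.017) lower, and Klf13 (0.28, adjusted p = 0.018) and Klf15 (0.60, adjusted p = 0.0066) higher. Leaving out P15 replicate 4 gave 5 members from P6 to P15 and 0 from P15 to P28, the counts found with it. With a log2 fold change of at least 1 in addition, 2 members (Klf9 and Klf4) were called from E14 to E17 against 3.6% of features, 3 (Klf9, Klf6 and Klf13) from P1 to P6 against 13%, and 1 (Klf10) from P6 to P15 against 8.05%. At that fold, 0 were called from E17 to P1, P15 to P28 and P28 to P60, against 1.84%, 0.384% and 0.453% of features. These are limma counts. In edgeR on the recovered reads, Klf15 also passed that fold from E17 to P1 (1.12, adjusted p = 0.0039) and Klf2 from P1 to P6 (2.33, adjusted p = 0.030). Members whose ranges did not overlap numbered 4, 5, 6, 5, 1 and 0 over the 6 steps in order, against 36.8%, 25.8%, 47.9%, 42.7%, 11.5% and 4.13% of features. Neighbouring steps share an age, so their values are not independent of each other.

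**Figure D3:**
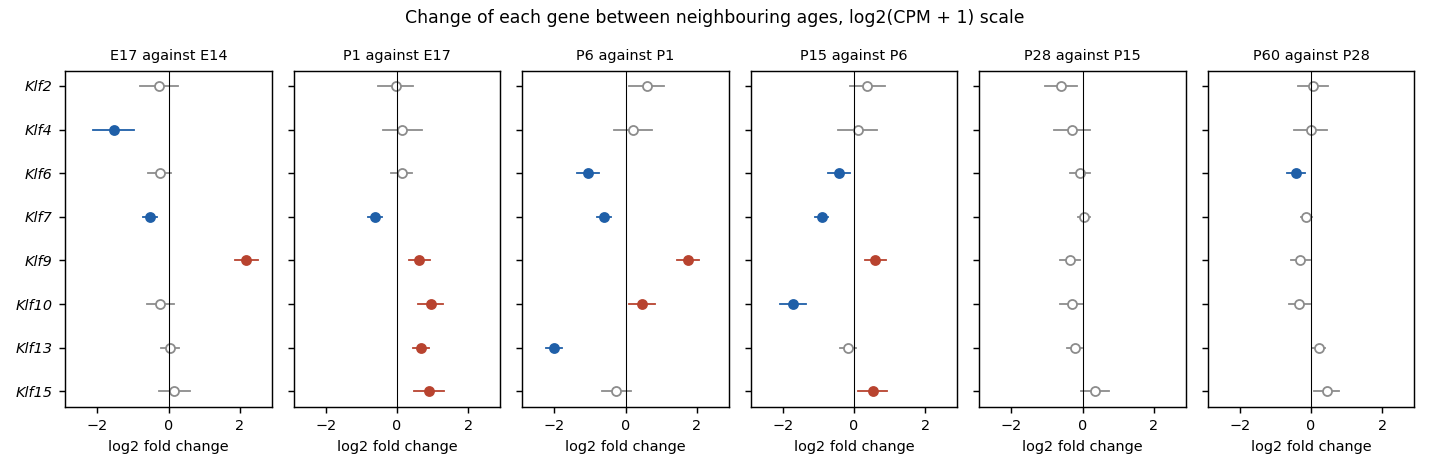
Log2 fold change of each member between neighbouring ages (points) with 95% intervals from limma (lines), on the log2(CPM + 1) scale, red for called higher, blue for called lower and open grey for not called. Klf9 and Klf7 were called in the first 4 steps in opposite directions, 0 members were called from P15 to P28, and Klf6 alone was called from P28 to P60.

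The order of the members by level was compared per kilobase of exon, with both Klf9 entries summed. At E14 Klf7 stood at 27.3 ± 0.58 CPM per kb, ahead of Klf6 at 18.8 ± 0.21, Klf13 at 9.78 ± 0.43 and Klf10 at 3.47 ± 0.40 (SD, n = 3 each). Klf4 had 1.11 ± 0.22, Klf9 0.919 ± 0.268, Klf15 0.727 ± 0.175 and Klf2 0.243 ± 0.173 CPM per kb, and Klf9 overlapped both of its neighbours in the order. At P6 Klf9 led at 27.6 ± 1.52 CPM per kb, and Klf6 at 8.21 ± 0.40, Klf10 at 8.15 ± 1.302 and Klf7 at 7.98 ± 0.48 differed by less than their spread (SD, n = 3 each). At P60 Klf9 still led at 24.5 ± 3.57 CPM per kb, followed by Klf15 at 4.37 ± 0.99, Klf6 at 4.35 ± 1.18, Klf7 at 3.97 ± 0.47 and Klf13 at 3.41 ± 0.42 (SD, n = 6 each), which overlapped. Klf15, which had been far below Klf6, Klf7 and Klf13 at E14, lay within their range at P60.

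The features whose level followed each member most closely were found by Pearson's r over the 27 libraries on the log2(CPM + 1) scale among 13114 candidates. The libraries share 7 ages, so these r values describe likeness of course and carry no test. Klf7 was most like Onecut2 (r = 0.9898), Islr2 (0.987) and Npm1 (0.987), of which Onecut2 is a transcription factor of early retinal neurons and Islr2 acts in axon guidance. Among the features most like Klf6 were Six6 (0.983), an eye-field transcription factor, and Mastl (0.983), a mitotic kinase. Klf9 was most like Ntm (0.987), a neural adhesion molecule, Gria2 (0.987), an AMPA receptor subunit, and Slc1a7 (0.984), a glutamate transporter. Klf13 was most like Mxd3 (0.979), Cdc25b (0.974) and Pbk (0.973), of which Cdc25b is a phosphatase and Pbk a kinase of cell division. Klf10 was most like Tceanc2 (0.955), Shisa2 (0.953) and Btg2 (0.941), an antiproliferative immediate early gene, and Klf15 most like Clcn7 (0.942), Zfyve26 (0.940) and Sec14l1 (0.939). For the low genes the best values were only 0.758 (Bche), 0.747 (Ubash3b) and 0.736 (Ret) for Klf4 and 0.707 (Myl6b), 0.703 (Gm32289) and 0.701 (Supt16) for Klf2. Between members, r was 0.93 for Klf6 and Klf7, 0.90 for Klf6 and Klf13, 0.75 for Klf9 and Klf15 and -0.93 for Klf7 and Klf9.

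Other genes of the same superfamily were compared over the mature against embryonic contrast. Of the other Klf genes, 6 were tested, of which 0 were higher, 5 lower and 1 not called, with a median log2 fold change of -0.71 against -0.06 for all features. Klf3, a repressor, went from 95.3 ± 7.08 CPM at E14 (SD, n = 3) to 16.3 ± 2.52 CPM at P60 (SD, n = 6), a contrast of -2.25 ± 0.08 (SE, limma adjusted p = 6.1e-22), and Klf8 fell by -1.92 ± 0.14 (SE, limma adjusted p = 9e-14). Klf5 and Klf11 fell by smaller amounts (-0.85 and -0.58), and Klf12, named here after its value was seen, was the gene not called (-0.04, limma adjusted p = 0.61). Klf1, an erythroid factor, did not pass the filter. Of 8 Sp genes, 3 were higher, 4 lower and 1 not called (median -0.08), with Sp6 at 2.19, Sp4 at 0.83, Sp1 at -1.11 and Sp8 at -1.85. Of 10 cofactors that Kruppel-like factors recruit, 3 were higher, 6 lower and 1 not called (median -0.41). Hdac2 and Hdac1, histone deacetylases, fell (-1.44 and -0.94), and of the CtBP corepressors Ctbp1 fell (-1.04) and Ctbp2 rose (1.003).

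**Figure D4:**
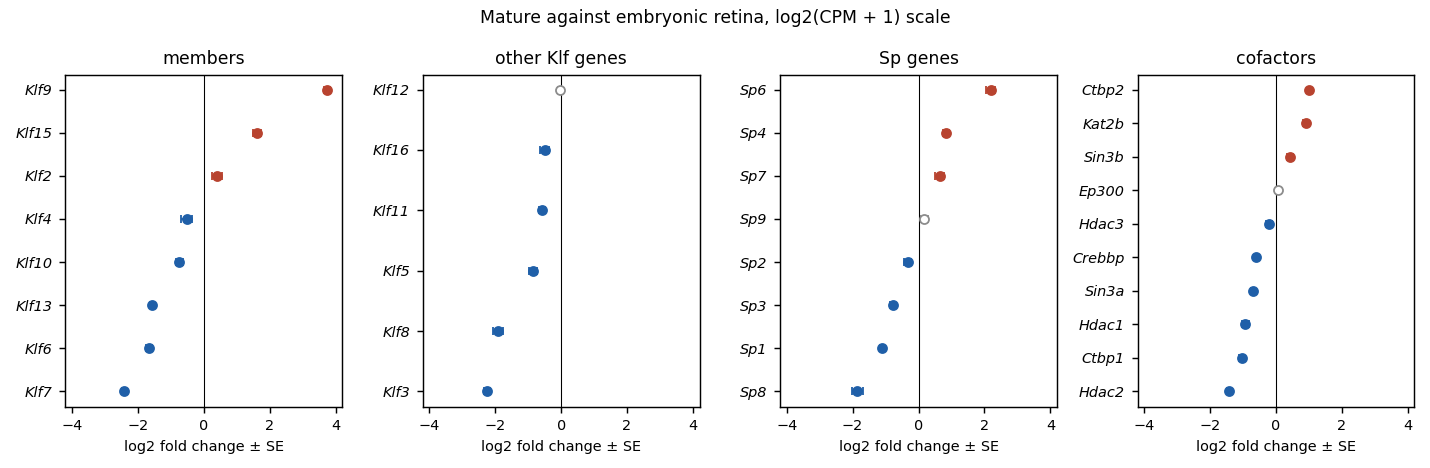
Log2 fold change of mature (P15, P28, P60) against embryonic (E14, E17) retina with SE from limma on the log2(CPM + 1) scale, for the 8 members, 6 other Klf genes, 8 Sp genes and 10 cofactors, filled where called and open where not. Klf9 at 3.73 lay furthest to the right and Klf7 at -2.41 furthest to the left, and no other Klf gene was called higher.

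Pathways in which the members are known to act were counted in the same contrast. Of 13 axon growth regulators tested, 6 were higher, 6 lower and 1 not called (median 0.03). Those that fell included Sox11, a factor of immature neurons, from 1256 ± 26.2 CPM at E14 (SD, n = 3) to 3.74 ± 0.54 CPM at P60 (SD, n = 6), a contrast of -7.35. Gap43, a growth cone protein, fell by -3.88, Lin28b, an RNA-binding protein, by -2.42 and Myc by -2.001 (largest limma adjusted p of these 4, 8.5e-15).
Of 6 thyroid hormone genes, 4 were higher, 1 lower and 1 not called (median 0.49). Hr, a corepressor and thyroid hormone target, rose by 5.35 and Dio2, the activating deiodinase, by 5.27, while Dio3, the inactivating deiodinase, fell by -3.26. In the 4 steps in which Klf9 rose, these 6 genes had 3 higher and 1 lower from E14 to E17 (against 10.6% of features called) and 2 higher and 2 lower between E17 and P1 (9.21%). In the step ending at P6 they had 4 higher and 1 lower (38.3%), and in that ending at P15 3 higher and 2 lower (33.4%). Of 7 glucocorticoid-responsive genes, 4 were higher, 2 lower and 1 not called (median 0.84), with Sgk1, a kinase, at 4.07 and Per1 at 2.10 but Zbtb16 at -2.28 and Fkbp5 at -1.37. Their summed level was 203 to 211 CPM at E14, 180 to 187 CPM at E17, 184 to 196 CPM at P1 and 184 to 185 CPM at P6. It was 203 to 219 CPM at P15, 271 to 287 CPM at P28 and 339 to 435 CPM at P60. The part of these genes in the Klf9 level was not tested. Of 11 clock genes, which include Per1 again, 10 were higher, 0 lower and 1 not called (median 2.10), led by Dbp at 3.99, Per3 at 3.44, Nr1d1 at 2.84 and Tef at 2.48. All tissue was taken within the same hours of the light phase, and the part of collection time in these levels was not tested. Of 11 immediate early genes, 6 were higher and 5 lower (median 0.47), with Egr1 at 3.93, Fos at 3.36 and Nr4a1 at 2.07 higher and Junb at -1.15 lower.

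Marker lists of retinal cell types moved with age as well, and their part in the members' levels was not tested. Between embryonic and mature retina, 8 of 8 rod, 7 of 7 cone, 6 of 7 bipolar and 5 of 7 Mueller glia markers rose, and 8 of 8 progenitor and 6 of 8 ganglion cell markers fell. Amacrine markers were split with 5 of 7 higher. Rod genes summed to 184 to 210 CPM at P1, 3584 to 4476 CPM at P6 and 18572 to 19796 CPM at P15 and 25356 to 27025 CPM at P28, where the mean of Klf9 was below its P15 mean. Endothelial markers were higher for 7 of 9, astrocyte markers for 3 of 4 and microglial markers for 2 of 6. Summed microglial and astrocyte markers stayed at or under 34.3 and 57.8 CPM in all libraries. Of the RPE markers tested, 3 of 6 were higher and 0 lower, of the lens markers 1 of 4 was higher and 1 lower, and of the blood markers 2 of 4 were higher and 0 lower.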

How the data were processed

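Per the labels and the study's methods, total RNA of dissected retina was made into libraries with a SMARTer total RNA kit, sequenced as single-end reads, and aligned by the authors with STAR to mm10 (GRCm38). The deposited table holds CPM values (reads of an entry scaled to the library total) for 38168 entries, of which 14905 have no Gene ID. The annotation behind it and its use of strand are not given in the sources used here. The members and the lists were chosen with earlier results of these data known.

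Within each library the CPM values came in steps of 1 read (within 0.01 of a read), so reads were recovered, although the automatic test could not judge E14 replicate 1. The limit for a count of 0 was 3 reads, 0.265 to 0.424 CPM, which covers counting error only. On log2(CPM + 1), limma 3.58.1 (R 4.3.3, trended variance) estimated age effects from the 27 libraries together, for the 31760 entries with 1 CPM or more in 3 or more libraries. P-values were two-sided and adjusted by Benjamini-Hochberg over these entries, with calls at 0.05. Fold changes on this scale understate low genes. Alternatives were a pseudocount of 0.1, no filter, a filter at a mean of 10 CPM, a replicate block, scaling by median of ratios, edgeR 4.0.16 (quasi-likelihood, TMM) on recovered reads, only the ages compared, summed entries of a symbol, a minimum log2 fold change of 1 and leaving out each library. EdgeR without E14 replicate 1 and limma without P60 replicates 1 and 2 were added after seeing the data. The fits were tested on simulated reads. Python 3.11.15 with numpy 2.4.6, pandas 2.3.3, scipy 1.17.1 and matplotlib 3.10.9 was used for the rest. Genes named are the 8 members, the 3 features most like each (with a Gene ID and a mean of at least 5 CPM, 1 of them not reported here), and up to 4 genes of a list with the largest contrast. Promoter sequences are from RefSeq (GRCm38.p6) and exons from GENCODE (GRCm38). The second Klf9 entry was used only where stated. No pair of libraries of an age agreed within sampling noise.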

Additional observations from a re-analysis of the deposited data

Results flagged for a closer look

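Klf6 at P15 was flagged for a library apart from the others of its age. P15 replicate 4 held 30.5 CPM, against 25.0 to 25.8 CPM in the other 3 libraries, a gap of 0.858 of the whole range. Of 32 groups of 4 or 6 libraries tested over the 8 members, 1 was flagged, and chance flags about 1 in 20 groups.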

How the results depend on the processing

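Of 27 results of a member in a comparison, 21 kept their call under every alternative other than the minimum log2 fold change of 1, which 11 of the 27 passed, and 0 reversed. The other exceptions were Klf2 and Klf4 between mature and embryonic retina, Klf6 from P6 to P15 and P28 to P60, Klf10 from P1 to P6 and Klf15 from P6 to P15. With a mean of at least 10 CPM, Klf2, Klf4 and Klf15 left the test, and 5 of 5 members were called between mature and embryonic retina and 5 of 5 over the 7 ages, in place of 8. With a log2 fold change of at least 1 in limma, the called members numbered 5 between mature and embryonic retina, and 0, 3, 1 and 0 in the steps ending at P1, P6, P15 and P60. At that fold edgeR on the recovered reads added Klf2 between mature and embryonic retina and from P1 to P6, and Klf15 from E17 to P1. When only the compared ages were fitted, 1 member (Klf9) was called from P15 to P28 and 4 in place of 3 from E14 to E17 (Klf6 added). From P28 to P60 the count of 1 became 0 with median-of-ratios scaling, with only the ages compared and in edgeR without E14 replicate 1, 2 with entries summed and 4 without P60 replicates 1 and 2 together, chosen after seeing the data, while edgeR on all libraries called Klf15 in place of Klf6. Leaving out a library gave 7 to 8 members between mature and embryonic retina and 8 to 8 over the 7 ages. For the steps ending at E17, P1, P6, P15, P28 and P60 it gave 3 to 3, 5 to 5, 4 to 6, 3 to 5, 0 to 0 and 0 to 3. From P28 to P60 it was 0 without P28 replicate 1, 2 or 3 or P60 replicate 3, 4 or 5, 3 without P60 replicate 1 (Klf6, Klf13 and Klf15) and 2 without P60 replicate 2 (Klf6 and Klf15). From P6 to P15 it was 3 without any of the P6 libraries or P15 replicate 2 or 3. The causes were not tested.

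The replicate numbers did not pair the libraries, since deviations of same-numbered libraries had a median r of -0.0018 over 69 pairs (-0.129 to 0.167) and 7 of 27 libraries correlated best with their own number. With the replicate number as a block, the count from P28 to P60 was 0 in place of 1, and Klf10 from P1 to P6 was not called either (adjusted p = 0.059). Median-of-ratios scaling moved the median of all features by at most 0.06 and edgeR's by 0.10 on the log2 scale. Depth limits Klf2 and Klf4, whose values rest on 38 reads or fewer per library.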
